A study of Homo sapiens with 5 samples.

Results

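Cells release and clear ribosomes that stall on mRNA by a chain of factors that split the ribosome, sense collisions and destroy the unfinished protein, and 10 of these factors were followed here through ribosome footprints of HAP1 cells. HAP1 is an adherent human line of chronic myeloid leukaemia origin with a near-haploid genome. The genes were chosen by name (PELO, HBS1L, ABCE1, ZNF598, ASCC3, NEMF, LTN1, TCF25, GIGYF2 and MAP3K20). No rule on their values was used, but earlier results of these data were known. Of the 10 names, 7 had a row under their own symbol in a table of 13638 rows. MAP3K20 was found by its transcript, which the table names AC013461.1 and GENCODE release 29 places in MAP3K20. No row was found for the collision sensor gene ZNF598 or the ubiquitin ligase gene LTN1, so their footprints were not analysed here. The libraries compared were 2 of wild-type HAP1 cells and 3 of HAP1 cells labelled as ZCCHC4 knockout, with no other treatment in the labels. The series names ZCCHC4 as the methyltransferase that places N6-methyladenosine on 28S ribosomal RNA, and the comparison asks how the share of footprints on each gene differs in cells labelled as lacking it. The labels do not say how the knockout was made, whether it is 1 clone, or whether libraries came from separate cultures, so p-values cover only the spread among these 5 libraries, and that spread may be technical.

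When a ribosome stops at the end of a broken mRNA or on a damaged codon, PELO enters its empty A site together with the GTPase HBS1L, and the ATPase ABCE1 then pulls the subunits apart. Where a following ribosome runs into the stalled one, the ubiquitin ligase ZNF598 marks the collided pair, the helicase ASCC3 takes the leading ribosome apart, GIGYF2 with the cap-binding protein EIF4E2 blocks new initiation on that mRNA, and the kinase MAP3K20 (also called ZAK) starts the ribotoxic stress response. After splitting, the nascent chain remains on the large subunit, where NEMF binds it and extends its end with alanine, LTN1 attaches ubiquitin, and TCF25, the human relative of yeast Rqc1, belongs to the same complex.

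The wild-type libraries held 5302160 and 4887380 counts in all and the knockout libraries between 16940732 and 31557573, so depth went with genotype. ZCCHC4 itself had 16.0 and 13.3 CPM in wild type (CPM are counts scaled to a common library total, after TMM scaling) and 3.85, 3.41 and 4.98 CPM in the knockout, with no overlap and a log2 fold change of -1.82 ± 0.20 (SE; edgeR adjusted p = 7.27e-05). Footprints remained on it in every knockout library. Knockout replicate 2 stood apart from the other 2 knockout libraries. A chi-square over genes, divided by its degrees of freedom, was 27.7 and 24.6 against them, where they gave 2.97 with each other. The wild-type pair gave 1.14, little more than the error of counting. This measure grows with depth, so the wild-type value cannot be set directly against those of the deeper knockout libraries. BCR and ABL1, listed as HAP1 markers, had footprints in every library. Their summed level, mostly BCR, was 7.93 to 8.03 CPM in wild type and 4.88 to 5.32 CPM in the knockout. ABL1 alone had 1.55 and 0.747 CPM in wild type and 0.770, 0.557 and 0.610 CPM in the knockout. Footprints on these genes do not by themselves identify the line. Of 8 haematopoietic markers, 3 had a row and CD34 and CD33 had at most 3 counts in every library. Their summed level, mostly KIT, was 10.9 to 12.5 CPM in wild type and 1.39 to 1.92 CPM in the knockout. Of 5 epithelial markers 4 had a row, with CDH1 and KRT19 at or near 0 and a sum, mostly KRT18, of 145 to 154 CPM in wild type and 135 to 158 CPM in the knockout. EPCAM had 1.21 and 1.49 CPM in wild type against 5.17, 4.21 and 4.77 CPM in the knockout. Of 5 fibroblast markers 4 had a row, and their sum, mostly COL1A1, was 16.6 to 18.3 CPM in wild type and 8.87 to 12.6 CPM in the knockout. The part of these differences in the results that follow was not tested. A footprint count follows both the amount of an mRNA and its occupancy by ribosomes, and these cannot be told apart here.

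PELO and TCF25 were the members with the largest changes, and their start regions are shown because the first is shared with a gene that moved the other way and the second lies in a stretch of chromosome 16 where several genes rose. The sequences are RefSeq windows on GRCh38.p14, plus strand, read 5′ to 3′, from 250 bases before the annotated start of the gene to 50 bases after it. The RefSeq windows of PELO and of the integrin gene ITGA1 are the same 300 bases, chr5:52787666-52787965. In that window capitals mark the 45 bases from the GENCODE start of the ITGA1 transcript (52787896) to that of the PELO transcript (52787940). In the TCF25 window, chr16:89873342-89873641, capitals mark the matches of TGCGCA, the core letters of the sites of the transcription factor NRF1.
PELO and ITGA1: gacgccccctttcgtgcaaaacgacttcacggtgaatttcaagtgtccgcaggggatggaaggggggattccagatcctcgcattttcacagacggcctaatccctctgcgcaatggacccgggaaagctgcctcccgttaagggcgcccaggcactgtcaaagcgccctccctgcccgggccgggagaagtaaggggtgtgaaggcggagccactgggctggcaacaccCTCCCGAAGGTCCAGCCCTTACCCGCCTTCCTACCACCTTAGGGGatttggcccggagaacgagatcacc
TCF25: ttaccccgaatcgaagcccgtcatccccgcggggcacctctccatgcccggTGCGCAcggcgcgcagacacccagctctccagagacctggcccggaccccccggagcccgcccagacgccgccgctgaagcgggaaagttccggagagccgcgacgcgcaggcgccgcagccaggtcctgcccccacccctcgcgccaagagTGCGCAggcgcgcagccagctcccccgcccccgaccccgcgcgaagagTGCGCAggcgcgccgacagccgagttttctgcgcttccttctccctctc
These letters read the same on both strands and were found in 8.24% of 35116 RefSeq windows of this length. The TCF25 window held 3 matches, HBS1L 2, and PELO (in lower case above) and GIGYF2 1 each, while ABCE1, MAP3K20 and NEMF held 0. The windows of ZNF598 and LTN1, which have no row of counts, also held 0, and ASCC3 had no window. No other motif was searched. The members with a match thus included PELO and TCF25, which rose, HBS1L, which fell, and GIGYF2, which did not pass, and a match describes the letters only.

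Of the 8 members with a row, all of which passed the filter on low counts, 3 were higher, 2 were lower and 3 were not called by the quasi-likelihood test of edgeR at an adjusted p under 0.05, so 62.5% changed. Over all 11205 genes tested 60.0% changed, with 30.2% higher and 29.8% lower, so the share of members that changed was near that of all genes. Higher were PELO, TCF25 and ASCC3, lower were HBS1L and MAP3K20, and ABCE1, GIGYF2 and NEMF did not pass. With library totals alone, which shift the median over all genes by -0.22 (log2), 2 were higher and 5 lower, and 6955 of all genes were called. By symbol alone, without the MAP3K20 row, 3 of 7 were higher and 1 was lower. The median log2 fold change of the 8 was -0.06, and that of all genes was 0.02. The sizes were uneven, since PELO and TCF25 rose by more than 2-fold and the other 6 members stayed within 1.36-fold. A rise of at least 2-fold that passed was found for 10.0% of all genes and such a fall for 13.1%. For 7 of the 8 members every knockout library lay on the same side of both wild-type libraries, as for 76.4% of all genes.

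**Figure D1:**
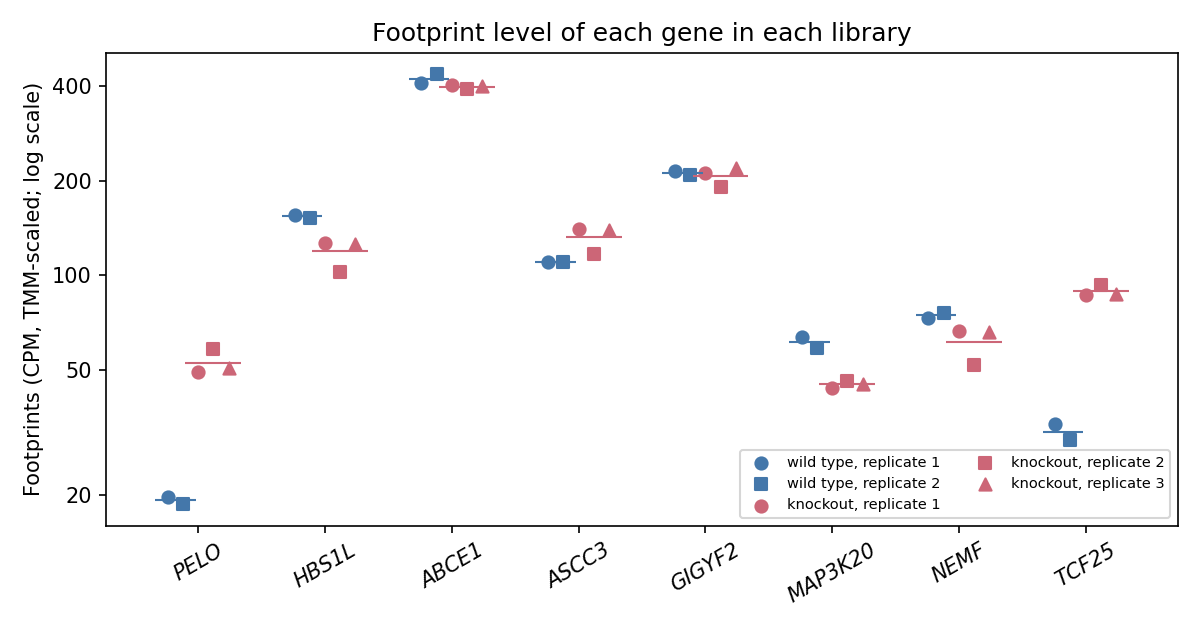
Footprint level of the 8 genes (CPM after TMM scaling, log axis) in each of the 5 libraries, with symbols for replicates and horizontal lines for group means. PELO and TCF25 lie far higher in all 3 knockout libraries, and ABCE1 and GIGYF2 lie at about the same level in both genotypes.

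Among the splitting factors, PELO rose, HBS1L fell and ABCE1 did not pass. PELO, which recognises the empty A site, is transcript ENST00000274311 (ENSG00000152684, GRCh38 chromosome 5, 52787940 to 52804046, plus strand, 3 exons, 1155 coding bases). It had 19.7 and 18.7 CPM in wild type and 49.3, 58.2 and 50.7 CPM in the knockout. All knockout libraries were well above both wild-type libraries. The means were 19.2 ± 0.703 (SD, n = 2) and 52.7 ± 4.74 CPM (SD, n = 3), a log2 fold change of 1.46 ± 0.12 (SE), or 2.74-fold, with an edgeR adjusted p of 1.47e-05. Its wild-type values rest on 114 and 100 counts, where counting error alone is 10.0% at the lower count.

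The rise of PELO was not shared by the gene around it. PELO lies within ITGA1, which encodes a collagen receptor chain, on the same strand, and the transcripts share 475 exon bases near their starts. Of the 1155 coding bases of PELO, 0 lie in exons of the ITGA1 transcript, whereas 61 coding bases of ITGA1 lie in exons of the PELO transcript. ITGA1 had 17.6 and 19.4 CPM in wild type and 9.93, 8.42 and 10.1 CPM in the knockout. It was lower in all 3 knockout libraries, with a log2 fold change of -0.95 ± 0.15 (SE; edgeR adjusted p = 4.84e-04), the opposite direction to PELO from a shared start region.

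HBS1L, the GTPase that delivers PELO, is transcript ENST00000367837 (ENSG00000112339, chromosome 6, 134960378 to 135054898, minus strand, 18 exons, 2052 coding bases). It had 155 and 152 CPM in wild type and 127, 102 and 126 CPM in the knockout. All knockout libraries were lower, and knockout replicate 2 was the lowest. The log2 fold change was -0.37 ± 0.11 (SE), 1.29-fold lower (edgeR adjusted p = 0.0135). Leaving out wild-type replicate 1 or 2 ended the call (adjusted p = 0.105 and 0.0824), which leaves a lone wild-type library assumed to vary like the others.

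ABCE1, the ATPase that splits the subunits, is transcript ENST00000296577 (ENSG00000164163, chromosome 4, 145097932 to 145129179, plus strand, 18 exons, 1797 coding bases). It had 408 and 435 CPM in wild type and 403, 391 and 401 CPM in the knockout. Although the groups did not overlap, the difference did not pass, at a log2 fold change of -0.08 ± 0.07 (SE; edgeR adjusted p = 0.311). The approximate 95% interval ran from 0.852 to 1.05-fold, which holds no change as large as that of PELO. Its exons share 184 bases with those of ANAPC10 on the other strand, none of them in the coding part of either transcript.

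**Figure D2:**
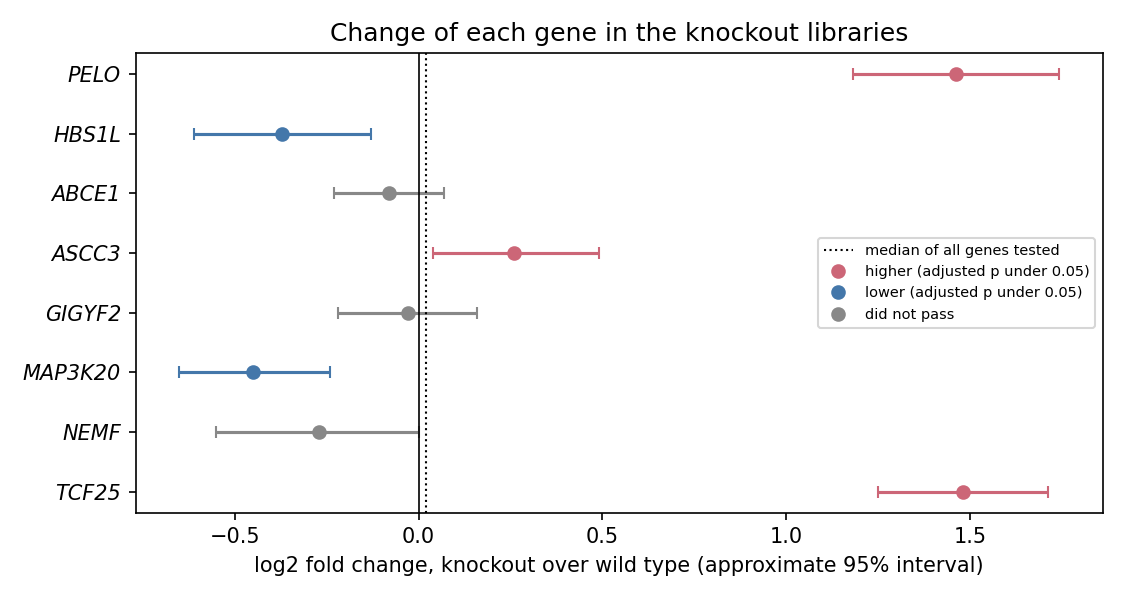
Log2 fold change of each member, knockout over wild type, with approximate 95% intervals (2 wild-type and 3 knockout libraries), coloured by call, and the median of all genes tested as a dotted line. PELO (1.46) and TCF25 (1.48) lie apart from the other 6, which lie between -0.45 and 0.26.

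The collision factors moved little. ASCC3, the helicase that takes apart the leading ribosome of a collided pair, is transcript ENST00000369162 (ENSG00000112249, chromosome 6, 100508194 to 100881364, minus strand, 42 exons, 6606 coding bases). It had 110 and 110 CPM in wild type and 140, 117 and 139 CPM in the knockout. All knockout libraries were higher, with replicate 2 close to wild type. The log2 fold change was 0.26 ± 0.10 (SE), 1.20-fold, at an edgeR adjusted p of 0.0465, just inside the threshold. This call held in 2 of 15 alternative settings, was lost without each library other than knockout replicate 2 (adjusted p between 0.135 and 0.203), and scaling by library totals alone gave a log2 fold change of 0.04.

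GIGYF2, which with EIF4E2 blocks initiation on the affected mRNA, is transcript ENST00000373563 (ENSG00000204120, chromosome 2, 232697307 to 232858612, plus strand, 29 exons, 3897 coding bases). It had 215 and 208 CPM in wild type and 211, 191 and 219 CPM in the knockout. The groups overlapped, and the log2 fold change was -0.03 ± 0.08 (SE; edgeR adjusted p = 0.763), with an approximate 95% interval of 0.860 to 1.11-fold. Its sign turned to 0.02 without knockout replicate 2. Its partner gene EIF4E2 had 47.6 and 51.3 CPM in wild type and 55.4, 42.5 and 55.6 CPM in the knockout, which also overlapped, and did not pass (0.05 ± 0.14, SE; edgeR adjusted p = 0.746).

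MAP3K20, the kinase that binds stalled ribosomes and starts the ribotoxic stress response, is transcript ENST00000375213 (ENSG00000091436, chromosome 2, 173075959 to 173268010, plus strand, 20 exons, 2400 coding bases). It had 63.8 and 58.8 CPM in wild type and 43.8, 46.0 and 45.1 CPM in the knockout. All knockout libraries were lower and lay close together. The log2 fold change was -0.45 ± 0.09 (SE), 1.36-fold lower (edgeR adjusted p = 0.00227), and the call held in all 15 alternative settings. The row is named for this transcript, and whether it also holds reads of other MAP3K20 transcripts is not known. An antisense gene, MAP3K20-AS1, overlaps it and has no row.

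In the complex on the large subunit, TCF25 rose and NEMF did not pass. TCF25 is transcript ENST00000263346 (ENSG00000141002, chromosome 16, 89873612 to 89911384, plus strand, 18 exons, 2028 coding bases). It had 33.6 and 29.9 CPM in wild type and 86.7, 93.3 and 86.9 CPM in the knockout. The knockout libraries lay close together and far above both wild-type libraries. The means were 31.8 ± 2.66 (SD, n = 2) and 89.0 ± 3.79 CPM (SD, n = 3), a log2 fold change of 1.48 ± 0.10 (SE), or 2.80-fold, with an edgeR adjusted p of 4.60e-06. The wild-type values rest on 195 and 160 counts.

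NEMF, which extends the stalled chain and helps LTN1 bind, is transcript ENST00000298310 (ENSG00000165525, chromosome 14, 49782083 to 49853203, minus strand, 33 exons, 3228 coding bases). It had 73.1 and 75.8 CPM in wild type and 66.6, 51.8 and 65.9 CPM in the knockout. All knockout libraries were lower, with replicate 2 the lowest, but the difference did not pass, at -0.27 ± 0.12 (SE; edgeR adjusted p = 0.0819) and an approximate 95% interval of 0.682 to 1.00-fold. It passed without knockout replicate 1 (-0.34, adjusted p = 0.0484) and without knockout replicate 2 (-0.17, adjusted p = 0.0208). Its exons share 2250 bases with those of KLHDC2 on the other strand, including 300 coding bases of NEMF, and the use of strand in counting is not given, so reads from there cannot be told apart. KLHDC2 had 54.3 and 49.7 CPM in wild type and 52.7, 41.7 and 51.0 CPM in the knockout, and did not pass (-0.10 ± 0.12, SE; edgeR adjusted p = 0.511).

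Knockout replicate 2 differed from the other knockout libraries in an uneven way across the members. Its CPM was 78.1% of the mean of knockout replicates 1 and 3 for NEMF, 80.9% for HBS1L, 83.9% for ASCC3 and 88.8% for GIGYF2. It was 97.2% for ABCE1, 103% for MAP3K20, 108% for TCF25 and 116% for PELO. The members that rose most in the knockout were therefore highest in that library, and the median over all genes was between 98.4 and 101% in each of 5 equal bins of genes by coding length. Without that library PELO and TCF25 were still higher, at log2 fold changes of 1.38 and 1.45.

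Coding length moved with the fold change over all genes, so the members were set beside genes of like length. In 5 bins of equal size the median log2 fold change was 0.15 for the shortest genes, then 0.08, 0.05 and -0.03, and -0.22 for the longest. PELO was in bin 2 (777 to 1209 coding bases), whose median of 0.08 is far below its 1.46. HBS1L, ABCE1, MAP3K20 and TCF25 were in bin 4 (1686 to 2574 bases), with a median of -0.03. ASCC3, GIGYF2 and NEMF were in the bin of the longest genes, so that NEMF at -0.27 was near the median of its bin and ASCC3 at 0.26 was above it.

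Levels of different genes were compared per kilobase of coding length. ABCE1 was the most abundant in every library, at 235 ± 10.9 CPM per kilobase in wild type (SD, n = 2) and 222 ± 3.65 in the knockout (SD, n = 3), at percentiles 93.2 and 91.8 of all genes. In wild type HBS1L followed at 74.9 ± 1.06 and GIGYF2 at 54.3 ± 1.29, then MAP3K20 at 25.5 ± 1.48 and NEMF at 23.1 ± 0.583 CPM per kilobase. ASCC3 (16.6 ± 0.00934), PELO (16.6 ± 0.609) and TCF25 (15.7 ± 1.31) were lowest and did not differ beyond their spread. In the knockout the order of the means changed below GIGYF2. HBS1L (57.8 ± 6.83) and GIGYF2 (53.1 ± 3.71) lay within their spread of each other. By their means PELO (45.7 ± 4.11) and TCF25 (43.9 ± 1.87) followed, within their spread of each other. In knockout replicate 2, however, PELO (50.4) was above both HBS1L (49.9) and GIGYF2 (49.0). ASCC3 (19.9 ± 1.97), NEMF (19.0 ± 2.59) and MAP3K20 (18.7 ± 0.444) were lowest. PELO moved from percentile 51.5 to 72.0 of all genes and TCF25 from 50.3 to 71.2, while MAP3K20 moved from 61.3 to 53.8. The highest member stood 15.0-fold above the lowest in wild type and 11.9-fold in the knockout.

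**Figure D3:**
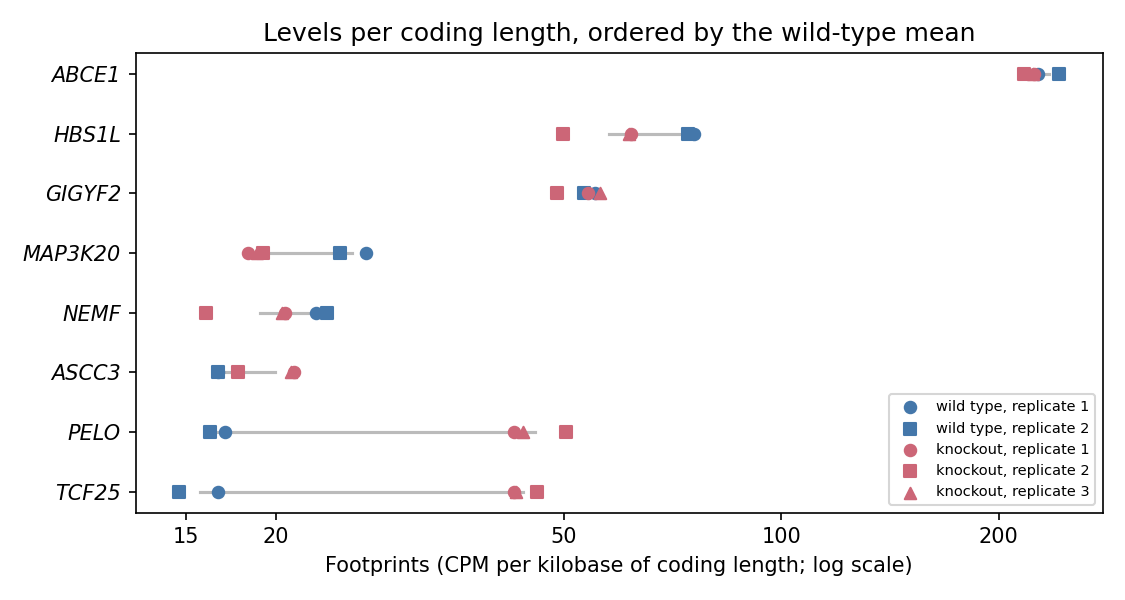
Levels in CPM per kilobase of coding length (log axis) for each library, ordered by the wild-type mean, with a grey line joining the group means. PELO and TCF25 lie at the low end in wild type, at 16.6 and 15.7, and above ASCC3, NEMF and MAP3K20 in the knockout.

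Ratios between partners within a library need no scaling between libraries. The ratio of PELO to HBS1L counts was 0.127 and 0.123 in wild type, against 0.388, 0.568 and 0.402 in the knockout. The groups did not overlap, and the mean log2 ratio was higher by 1.83 in the knockout, or 3.56-fold (exact two-sided permutation p = 0.200 with n = 2 and n = 3, the smallest these libraries allow, and 0.267 adjusted over 4 pairs). The ratio of PELO to ABCE1 counts was 0.0484 and 0.0431 in wild type, against 0.123, 0.149 and 0.126 in the knockout, higher by 1.53 on the log2 scale with the same exact p. For TCF25 to NEMF, a pair added after the values were seen, the ratio was 0.461 and 0.395 in wild type, against 1.30, 1.80 and 1.32 in the knockout, higher by 1.77, again with the smallest exact p. TCF25 had fewer counts than NEMF in both wild-type libraries and more in all 3 knockout libraries. The ratio of GIGYF2 to EIF4E2 overlapped between the genotypes, at 4.51 and 4.05 in wild type against 3.81, 4.49 and 3.94 in the knockout (log2 difference -0.07, exact permutation p = 0.400).

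The neighbours of the members along the chromosomes were examined because earlier results of these data named stretches of chromosomes 8 and 16. No member lies on chromosome 8. TCF25 lies near the end of the long arm of chromosome 16, and 15 tested neighbours, 10 on its centromere side and 5 towards the end of the arm, span 89560657 to 90044971. Among them 8 rose, 1 fell and 6 were not called, and their median log2 fold change was 0.37. Over all genes tested 30.2% were higher and 29.8% lower. The neighbours with changes at least as high as that of TCF25 were TUBB3, a beta-tubulin of neurons (2.24), SPATA33 (1.89) and CENPBD1 (1.71). TUBB3 is the next tested gene towards the end of the arm. SPIRE2, the next on the centromere side, was at -0.11 and did not pass. DEF8 was called higher, at 0.37. The change of TCF25 was above that of 12 of the 15 neighbours. PELO had 20 tested neighbours over 13.5 Mb, of which 7 rose, 5 fell and 8 were not called (median 0.13), and ITGA1 and ITGA2 beside it both fell (-0.95 and -0.63). For the other members the medians of 20 neighbours were -0.23 around HBS1L, 0.01 around ABCE1, 0.24 around ASCC3, -0.41 around GIGYF2, 0.16 around MAP3K20 and 0.43 around NEMF. Higher and lower neighbours numbered 5 and 6 around HBS1L, 6 and 6 around ABCE1, and 8 and 7 around ASCC3. They numbered 4 and 8 around GIGYF2, 6 and 5 around MAP3K20, and 11 and 4 around NEMF. More neighbours rose than fell around NEMF too. Its neighbours span 5.81 Mb and those of TCF25 0.484 Mb, so the counts are not directly comparable. Copy number was not tested.

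**Figure D4:**
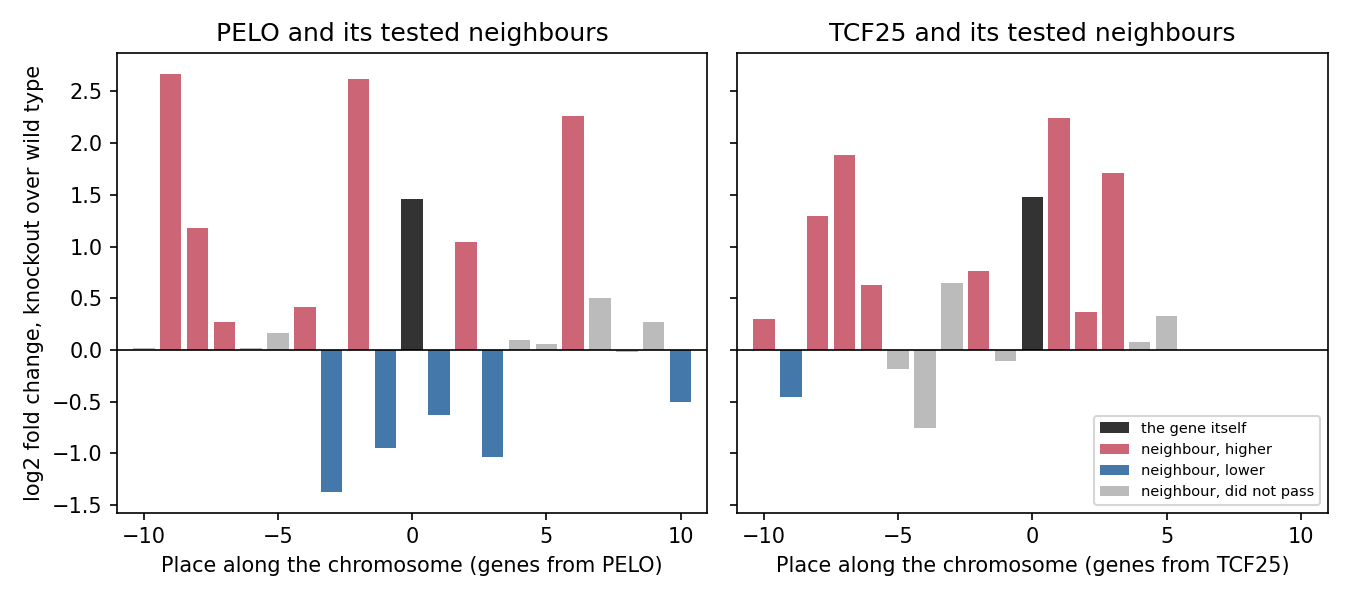
Log2 fold change (knockout over wild type) of PELO and TCF25 (dark bars) and of up to 10 tested genes on each side, in order along the chromosome, coloured by call. PELO stands between ITGA1 (-0.95) and ITGA2 (-0.63), which both fell. Of the 15 neighbours of TCF25 8 rose, where 30.2% of all genes tested did.

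Other genes of rescue and quality control were taken from a list of 70, of which 67 had a row and 66 were tested. Of these 18 rose, 17 fell and 31 did not pass, so 53.0% changed against 60.0% of all genes, with a median log2 fold change of 0.05. The remaining row, the chaperone gene BAG6, had 1 count in knockout replicate 1 and 0 in the other libraries, and was below the filter. Library totals alone gave 12 higher and 25 lower. Without knockout replicate 2 the count of higher genes was 29, and 8176 of all genes were called, against 6721 with all 5 libraries. No direction was shared by the list.

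Among 10 further genes of splitting, rescue and mRNA clearance, 1 rose and 5 fell, and this 60.0% is the share of all genes. The gene that rose was EIF5A, whose product helps ribosomes past difficult peptide bonds, from 352 and 362 to between 541 and 597 CPM (0.68 ± 0.07, SE). TTC37, the scaffold of the SKI complex that feeds mRNA to the exosome, fell from 230 and 245 to between 136 and 145 CPM (-0.76 ± 0.07). GTPBP2, a GTPase that acts beside PELO and HBS1L in rescue, fell from 23.3 and 22.2 to between 10.6 and 12.5 CPM (-1.01 ± 0.13), and its paralog GTPBP1, named after its value was seen, was at -0.62 ± 0.10. The exonuclease gene XRN1 was also at -0.62 ± 0.10. The termination factor genes ETF1 and GSPT1, relatives of PELO and HBS1L, did not pass, at 0.10 ± 0.08 and -0.06 ± 0.08, and these too are named after their values were seen.

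Among 22 genes of collision sensing and its response, 4 rose, 4 fell and 14 did not pass, and this 36.4% was below the 60.0% of all genes, a difference that was not tested. USP10, a deubiquitinase that acts on the small subunit, rose from 81.4 and 77.9 to between 136 and 150 CPM (0.85 ± 0.09, SE), and G3BP2, its binding partner, from 245 and 250 to between 419 and 462 CPM (0.83 ± 0.07). RACK1, the small-subunit protein at the collision interface, listed as GNB2L1, was at 0.28 ± 0.08 (edgeR adjusted p = 0.0172), a call that was lost in 6 of 15 alternative settings, among them without wild-type replicate 1 (adjusted p = 0.132) or 2 (0.117). CNOT1, the scaffold of the CCR4-NOT deadenylase, fell from 888 and 892 to between 409 and 415 CPM (-1.11 ± 0.06). N4BP2, an endonuclease related to the one that cuts mRNA at collisions in yeast and worms, was at -0.85 ± 0.10. Of the subunits that work with ASCC3, TRIP4 fell (-0.52 ± 0.08), and ASCC1 and ASCC2 did not pass (-0.04 ± 0.09 and 0.05 ± 0.10, named after their values were seen).

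Among 10 tested genes of nascent chain degradation, 4 rose, 2 fell and 4 did not pass, again 60.0%. RCHY1, a ubiquitin ligase that reads the alanine tails made by NEMF, rose from 26.9 and 27.3 to between 55.0 and 62.4 CPM (1.14 ± 0.11, SE). VCP, the ATPase that extracts ubiquitinated chains from the large subunit, and its cofactor UFD1, listed as UFD1L, rose by 0.57 ± 0.07 and 0.72 ± 0.08 on the log2 scale, while the other cofactor, NPLOC4, fell (-0.26 ± 0.08), a call lost in 7 of 15 alternative settings. UBE2D2, a ubiquitin-conjugating enzyme, was at -0.67 ± 0.10. ANKZF1, which frees the chain from its tRNA, did not pass and was at 0.01 ± 0.13, and is named after its value was seen.

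The UFM1 system attaches a small modifier to large subunits stalled at the endoplasmic reticulum. Of its 9 genes 2 rose, 3 fell and 4 did not pass, or 55.6% changed, near the 60.0% of all genes. DDRGK1, an adaptor of the ligase, rose from 25.5 and 23.7 to between 49.1 and 58.7 CPM (1.13 ± 0.12, SE). The modifier gene UFM1 itself fell from 76.9 and 84.0 to between 38.5 and 47.0 CPM (-0.93 ± 0.11), and the protease gene UFSP2 was at -0.66 ± 0.10. SAYSD1 (0.53 ± 0.19) and CDK5RAP3 (-0.29 ± 0.09) passed, but lost the call in 11 and 7 of 15 alternative settings.

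Downstream of MAP3K20, 3 of 8 stress kinase genes rose and 2 fell, or 62.5% changed, near the 60.0% of all genes. MAP2K6 and MAP2K3, which activate p38, rose by 1.17 ± 0.15 and 0.56 ± 0.12 (SE) on the log2 scale, with the MAP2K3 call lost without wild-type replicate 2 (adjusted p = 0.0542) and with every library thinned to the smallest total (0.36, adjusted p = 0.0670), and MAPK14, which is p38 alpha, was at 0.28 ± 0.09, a call that held in 4 of 15 alternative settings. MAPK9, which encodes the kinase JNK2, fell from 57.8 and 59.4 to between 23.2 and 24.5 CPM (-1.29 ± 0.09), and MAPKAPK2, a target of p38, was at -0.81 ± 0.11.

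Mitochondria rescue their ribosomes with a separate set of factors, of which 4 of 7 genes rose and 1 fell, with a median of 0.49. This is 71.4% changed, against 60.0% of all genes with a median of 0.02, a difference that was not tested. MRRF, the mitochondrial recycling factor, rose from 32.8 and 32.9 to between 59.2 and 76.8 CPM (1.09 ± 0.13, SE). MTRFR, a rescue factor listed as C12orf65, was at 1.10 ± 0.17, and GFM2, the recycling GTPase, at 0.49 ± 0.10, a call lost without wild-type replicate 1 (adjusted p = 0.0546). MRPL58, a peptidyl-tRNA hydrolase of the mitochondrial ribosome listed as ICT1, fell from 147 and 141 to between 75.0 and 79.9 CPM (-0.89 ± 0.08).

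Leaving out any single library other than knockout replicate 2 ended the calls of NPLOC4, SAYSD1, CDK5RAP3 and MAPK14 (adjusted p from 0.0532 to 0.254).

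**Figure D5:**
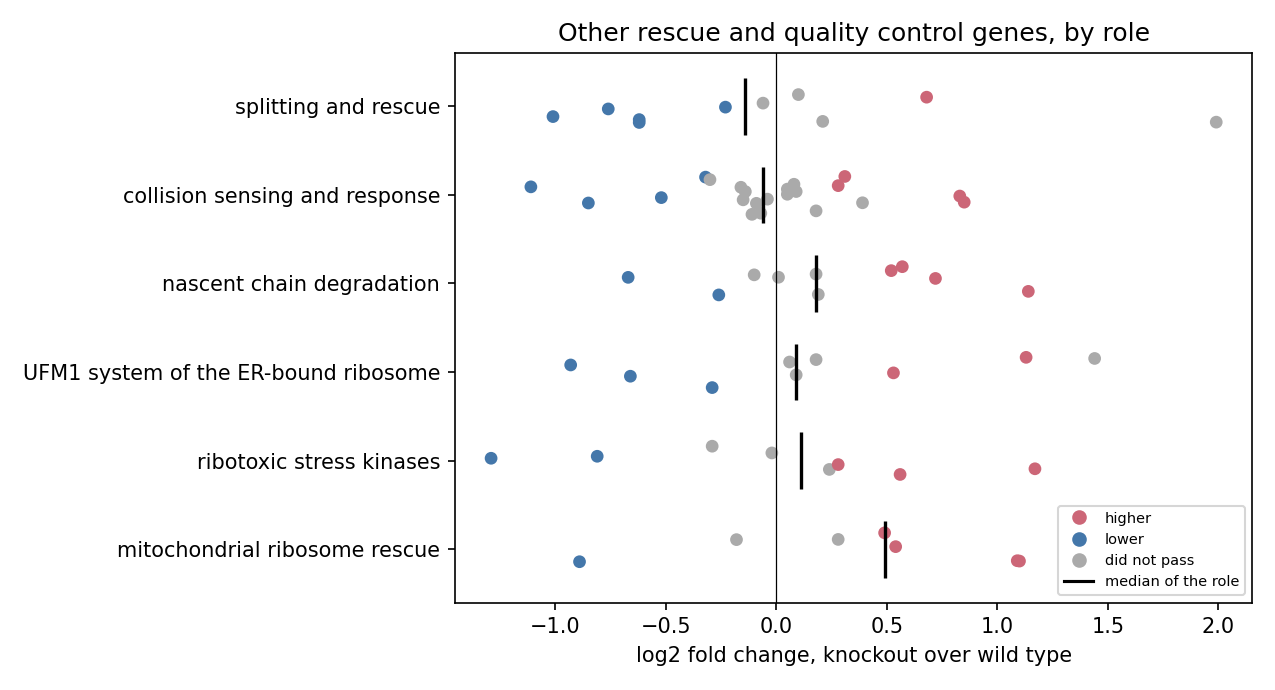
Log2 fold change (knockout over wild type) of the 66 tested genes of the wider list by role, a point per gene coloured by call, with a black bar at each role's median. Each role holds genes on both sides of 0, with medians from -0.14 for splitting and rescue to 0.49 for mitochondrial rescue.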

How the data were processed

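Ribosome footprints of 28 to 32 nt from cells lysed with cycloheximide were sequenced, per the labels' protocols. The deposited table holds raw whole-number counts per transcript, not normalized. Bowtie (version not given) and hg38 are named in the submitters' processing notes, whereas the sources used here do not name the counting tool, the annotation, the use of strand or the handling of duplicates and multiply mapping reads. Its header is shifted by 1 cell, and columns were assigned by name.

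Counts were fitted over the whole table in R 4.3.3 with edgeR 4.0.16 (TMM, filterByExpr with a minimum count of 10, quasi-likelihood test, genotype as the only term, Benjamini-Hochberg over 11205 genes, adjusted p under 0.05). The SE is the log2 fold change divided by the square root of F. DESeq2 1.42.0 and limma 3.58.1 (voom), other scalings and filters, single libraries left out, a replicate block, summed wild-type libraries and thinning to the smallest total were alternatives. Transcripts were matched to GENCODE 29, which placed 13533 of 13638 rows, and RefSeq windows held 9 of the 10 members. Partner ratios had 0.5 added to each count. The fit was tested on simulated data.

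Members and lists were chosen with earlier results of these data known. Named list genes are up to 3 with the smallest adjusted p per role and direction. Ratios that need ZNF598 or LTN1 could not be computed. Counting error does not cover PCR duplicates.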

Additional observations from a re-analysis of the deposited data

How the results depend on the processing

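PELO, TCF25 and MAP3K20 kept their direction and their call in all 15 alternatives, with log2 fold changes of at least 1.24, at least 1.27 and between -0.67 and -0.39. Library totals in place of TMM scaling moved the median of all genes by -0.22, and 5 members were then lower, ABCE1 (-0.30), GIGYF2 (-0.25) and NEMF (-0.49) among them. Members called lower numbered 2 or 3 when single knockout libraries were left out, where 5969 to 8176 of all genes were called. With the wild-type libraries summed as 1, or with 1 of them left out, HBS1L lay between -0.39 and -0.36. NEMF passed in 5 alternatives (-0.49 to -0.17) and HBS1L in 12. GIGYF2 changed sign to 0.01 with no filter on low counts and to 0.02 without knockout replicate 2 (-0.08 to 0.02 with single libraries left out). Genes of the wider list called higher numbered 14 to 29 when single knockout libraries were left out, the 29 without knockout replicate 2. Without that library 8176 of all genes were called, against 6721 with all 5 libraries. The log2 ratios, with single libraries left out, were 1.66 to 1.93 for PELO to HBS1L, 1.45 to 1.62 for PELO to ABCE1, 1.62 to 1.88 for TCF25 to NEMF and -0.15 to 0.01 for GIGYF2 to EIF4E2. With the replicate number as a block, 2 members were higher and 2 lower, ASCC3 was at 0.22 (adjusted p = 0.211), and 6094 of all genes were called against 6721. Deviations from the genotype mean correlated at -0.0855 between the libraries numbered 1 and at -0.0806 between those numbered 2. With 2 wild-type libraries the wild-type deviations mirror each other, so these are not separate checks. They cannot show whether same-numbered libraries were prepared together. Of the 29 named genes of the wider list, 22 kept their call in every alternative and none changed direction. The cause of lost calls was not tested. With 100 to 195 wild-type counts for PELO and TCF25, depth limits the precision of their folds.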
